A study of Sus scrofa with 14 samples.

Results

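Of the 19588 porcine genes counted, 217 were on in primary blastocyst outgrowths and low in the lines passaged in the same FGF2 medium. A gene was taken as on when the mean normalized count of the 2 samples of a group was at least 40, and as off when it was below 15. The 217 genes had a mean of at least 40 in pESCLC-primary and below 15 in pESCLC-F, whatever their values elsewhere, so the contrast between these groups chose them and is given without a test. A normalized count is a read count divided by 1 size factor per sample. A name was available for 188 of the genes, and 29 are known here by their Ensembl identifiers.

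RNA from 14 samples was sequenced, 2 in each of 7 groups. The pESCLC-primary samples were outgrowths of porcine blastocysts in F, a primed-type medium with FGF2. The pESCLC-F samples were embryonic stem cell-like lines A1 and A2 kept in F to passage 2. Some pESCLC were moved at day 8 into FL6i, which holds FGF2 and LIF and inhibitors of MAPK14, MAPK8, TGFB, GSK3A, MAP2K1 and BMP signaling, and both pESCLC-FL6i samples were coded C2, at passages 3 and 9. From FL6i some were moved at day 18 into FLB2i, which holds LIF, FGF2 and BMP4 with inhibitors of GSK3 and TGFB signaling, and both pESCLC-FLB2i samples were coded B1, at passages 3 and 6. Lv-piPSC-F were lentivirally reprogrammed cells in F, and their 2 samples bore different codes, the second with passage 46. The paper's methods give fetal bovine serum for the blastocyst medium, which it also calls F, but serum replacement for F in routine culture. F may therefore not be the same medium in Lv-piPSC-F as in the outgrowths and pESCLC-F. The Epi-piPSC were porcine fetal fibroblasts reprogrammed with episomal plasmids carrying human POU5F1, SOX2, KLF4, LIN28 and L-MYC and a short hairpin RNA against p53. Their colonies were raised and picked separately in each medium after transfection. In FLB2i both samples were coded B5, at passages 9 and 12, and in FL6i they were C10 at passage 12 and C11 at passage 11. All lines were grown on irradiated mouse embryonic fibroblasts. The labels do not tie the outgrowths to lines A1 and A2, and several duplicates are passages of 1 line, so p-values measure the spread between these samples, which may be technical.

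A porcine blastocyst holds an epiblast, which forms the embryo, and the trophectoderm and hypoblast, which form extraembryonic tissues. When an outgrowth is cultured, epiblast cells can begin to take on the programs of later embryos, which are set by families of transcription factors. HOX proteins give cells their position along the body axis, CDX2, GATA and TFAP2 factors act in trophectoderm, and TBXT and HAND factors act in early mesoderm. In bulk RNA, fewer cells of a type and less RNA per cell cannot be told apart.

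The samples had 6193659 to 58878377 reads on genes. The smallest library was pESCLC-FL6i sample 2, where a single read was worth 2.62 normalized counts. Its genes of mesenchyme summed to 306549 normalized counts, against 2805 in its duplicate. The same sum was 3882 and 52876 in the pESCLC-FLB2i samples. The Lv-piPSC-F samples also stood apart from each other, for instance with 393 and 0 normalized counts of HAND1. NANOG, a pluripotency factor, had 287 and 178 normalized counts in the outgrowths and 240 and 343 in pESCLC-F. In pESCLC-FL6i NANOG was at 15.7 and 7.86, in pESCLC-FLB2i at 24.6 and 20.7 and in Epi-piPSC-FL6i at 0.965 and 0.999. KRT8, an epithelial keratin abundant in trophectoderm, had 230905 and 265084 normalized counts in the outgrowths, and GATA3, a trophectoderm factor, 1858 and 1683. GATA6, a gene of the hypoblast and endoderm list, had 2740 and 2561 in the outgrowths. The summed level of that list was 147998 and 209567 in the outgrowths and 376420 and 311477 in pESCLC-F. The outgrowths therefore carried RNAs of trophectoderm and of the hypoblast and endoderm list beside NANOG.

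Among the genes on in pESCLC-primary, 1.82% met the rule. Their means ran from 40.1 to 847 in pESCLC-primary, with a median of 64.9, and from 0 to 14.9 in pESCLC-F, with a median of 6.68. In the opposite direction, 42 genes were on in pESCLC-F and below 15 in pESCLC-primary. Just inside the first threshold lay an unnamed gene, ENSSSCG00000032620, at 40.06 and the potassium channel gene KCNH3 at 40.4. Just outside it lay PARD6A and ENSSSCG00000012669, both at 39.9. Just inside the second lay the protease gene MMP16 and the collagen gene COL13A1, both at 14.9 in pESCLC-F, and just outside it FER1L5 at 15.3 and ENSSSCG00000012517 at 15.3.

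The outgrowths themselves differed in these genes. In 210 of the 217 both outgrowths lay above both pESCLC-F samples, but both outgrowths reached 40 in 118 genes, or 54.4%. The 7221 other genes of the same range of means reached 40 in both outgrowths in 96.0% of cases. The duplicates were at least 3-fold apart in 65 members, or 30.0%, against 1.43% of those other genes, and sample 1 was the higher in 58 of the 65. By its threshold the rule favours genes that are uneven between the outgrowths, so these shares describe the list and were not tested. With pESCLC-primary sample 1 alone left out, the rule found 175 genes, and without sample 2 it found 245.

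**Figure D1:**
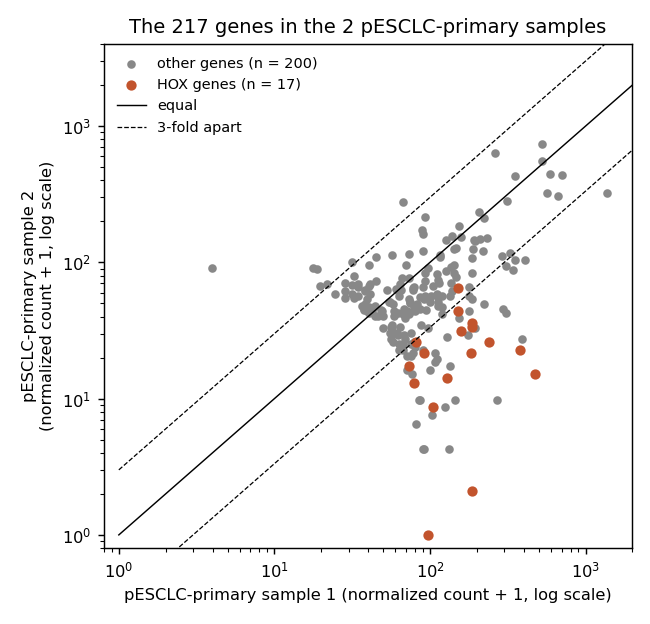
Normalized counts + 1 of the 217 genes in pESCLC-primary sample 1 (x axis, log scale) and sample 2 (y axis, log scale), with the 17 HOX genes in orange. The solid line marks equal values and the dashed lines values 3-fold apart, and the HOX genes lie below the solid line, in most cases beyond 3-fold.

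A member on the Y chromosome showed the same split. EIF1AY, at chrY:9687350-9704489 in Sscrofa11.1, encodes a translation initiation factor and had 270 and 8.74 normalized counts in the outgrowths and 15.7 and 9.10 in pESCLC-F. Epi-piPSC-FL6i had 577 and 548 normalized counts of it and Lv-piPSC-F 526 and 863, but Epi-piPSC-FLB2i had 12.4 and 5.53. The embryo-derived lines had 10.0 and 12.8 of it in FLB2i and 7.34 and 86.5 in FL6i. Between the Epi-piPSC media its log2 fold change was 5.91 (SE 0.38, adjusted p 1.4e-05 by limma). The gene most like it over the 14 samples was KDM5D, a Y-linked histone demethylase (Pearson's r 0.988 on log2(normalized count + 1), a description). The Y-linked RNA was thus higher in outgrowth 1, in Lv-piPSC-F, in Epi-piPSC-FL6i and in pESCLC-FL6i sample 2, the library with the high mesenchyme sum, and its part in the other results was not tested.

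The share of the 217 genes that was on differed between the groups that the rule did not use. Of the members, 153 (70.5%) were on in pESCLC-FL6i, 139 (64.1%) in pESCLC-FLB2i, 134 (61.8%) in Epi-piPSC-FLB2i, 106 (48.8%) in Epi-piPSC-FL6i and 102 (47.0%) in Lv-piPSC-F. These shares stand against 93.7%, 93.1%, 92.6%, 91.2% and 92.0% of the other genes on in pESCLC-primary, in the same order, and against 65.2%, 62.7%, 60.5%, 59.0% and 60.9% of all genes. The members were thus on less often than other outgrowth genes in each group, and in the first 3 of these groups about as often as genes in general. With both samples required past each threshold, 57 of the 89 genes left were on in Epi-piPSC-FLB2i and 53 in pESCLC-FL6i, so the order of these groups turned. Members were off most often in Epi-piPSC-FL6i, with 85 genes, and Lv-piPSC-F, with 76. Both samples of a group reached 40 in 130 of the 153 genes on in pESCLC-FL6i and in 79 of the 102 on in Lv-piPSC-F. A gene counted as on in a group need not be at the outgrowth level. In pESCLC-FL6i the median of the member means was 172, above that of the outgrowths, while in Epi-piPSC-FL6i the median was 37.4.

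**Figure D2:**
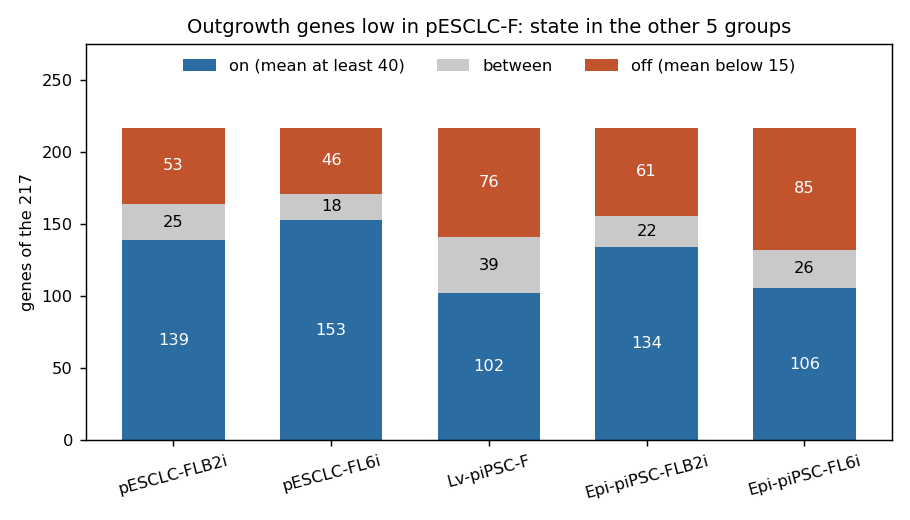
Number of the 217 genes that were on (mean of 2 samples at least 40), off (below 15) or between in each of the 5 groups that the rule did not use. The on part is tallest in pESCLC-FL6i (153) and shortest in Lv-piPSC-F (102).

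A core of 51 genes (23.5%) was on in all 5 of these groups, against 84.5% of the other genes on in the outgrowths. At the other end, 13 genes were off in all 5, against 0.854% of the other genes. The genes of the core were low in pESCLC-F alone. Among those with the highest outgrowth means were LSAMP, a neuronal adhesion protein, PCYT1B, an enzyme of phosphatidylcholine synthesis, and FJX1, a secreted Golgi-associated regulator. LSAMP had 324 and 117 normalized counts in the outgrowths and 12.6 and 10.1 in pESCLC-F, and between 753 and 4452 in each of the other 10 samples. FABP7, the brain fatty acid binding protein and a marker of radial glia, had 56.1 and 32.8 in the outgrowths and 1.05 and 14.2 in pESCLC-F. It had 1414 or more in each of those 10 samples. Among the genes off in all 5 groups were TBXT, CD93, an endothelial and myeloid receptor, and GGT6, a gamma-glutamyltransferase.

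**Figure D3:**
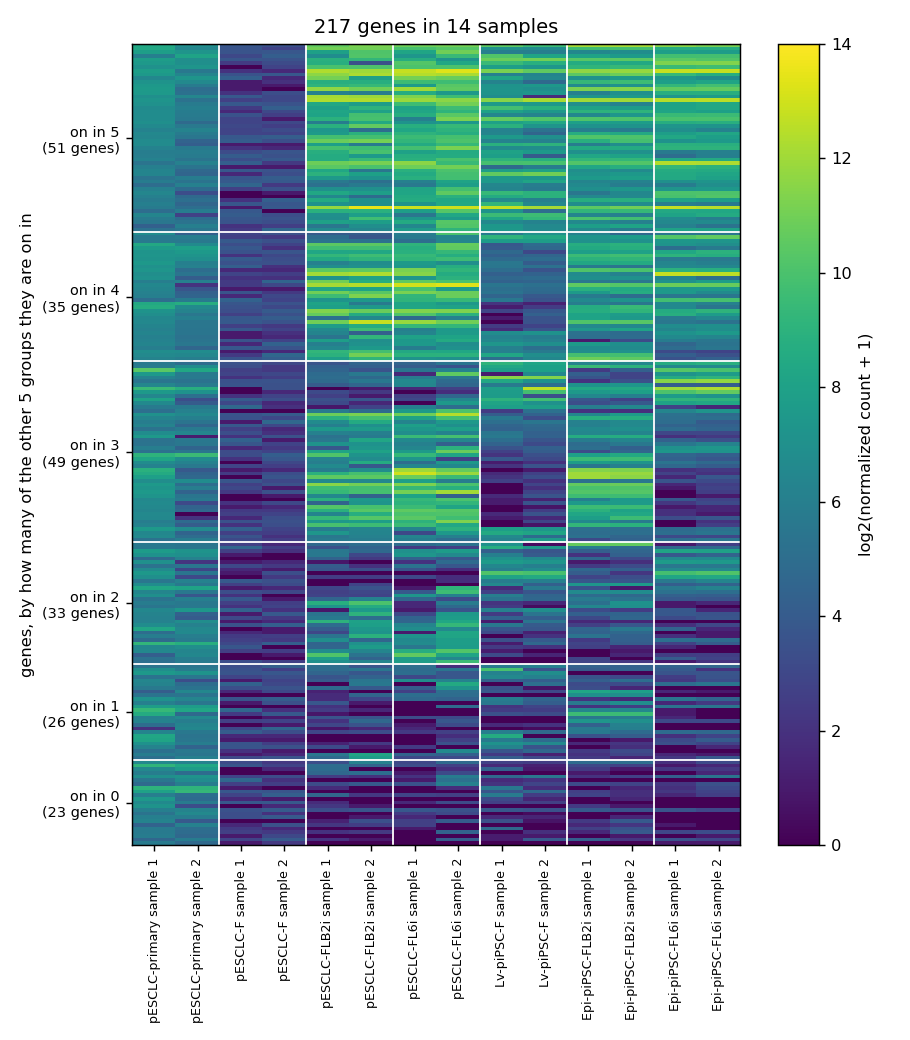
Normalized counts of the 217 genes (rows) in the 14 samples (columns) as log2(normalized count + 1), grouped by the number of the other 5 groups in which each gene was on. The 51 genes on in all 5 are dark in the pESCLC-F columns alone, and the 23 genes on in none are lightest in the pESCLC-primary columns.

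The largest family among the members was the HOX genes. Of 34 HOX genes in the table, 17 were members, 14 others were not on in the outgrowths and 3 were not low in pESCLC-F. The members were 5 of the HOXA cluster on chromosome 18, 5 of HOXB on chromosome 12, 3 of HOXC on chromosome 5 and 4 of HOXD on chromosome 15. All 17 were higher in outgrowth sample 1 than in sample 2, and 16 of them by at least 3-fold. HOXA9 had 471 and 14.2 normalized counts in the outgrowths, HOXA5 378 and 21.9 and HOXC4 240 and 25.1. The HOX set among the members thus rests on 1 outgrowth: without sample 1 the rule kept 2 of them, and without sample 2 it kept all 17.

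Of the 5 groups that the rule did not use, 3 had most of the HOX members on and 2 had most of them off. All 17 were on in pESCLC-FL6i, 16 were on in Epi-piPSC-FLB2i and 16 in pESCLC-FLB2i, but 3 in Epi-piPSC-FL6i and 2 in Lv-piPSC-F. HOXA9 had 3885 and 1656 normalized counts in pESCLC-FL6i, while Epi-piPSC-FLB2i had 2707 and 2415, and fewer, 57.7 and 115, in pESCLC-FLB2i. The same gene had 0 and 1.04 in Lv-piPSC-F and 2.90 and 4.0 in Epi-piPSC-FL6i. HOXA5 had 8053 and 3746 normalized counts in pESCLC-FL6i, while Epi-piPSC-FLB2i had 4033 and 3691 and pESCLC-FLB2i 499 and 923, against 5.79 and 3.0 in Epi-piPSC-FL6i and 2.20 and 5.57 in Lv-piPSC-F. HOXB8 had 2144 and 4315, 1236 and 1246, and 674 and 920 in the 3 high groups in that order, and at most 6.27 in the 2 low ones.

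**Figure D4:**
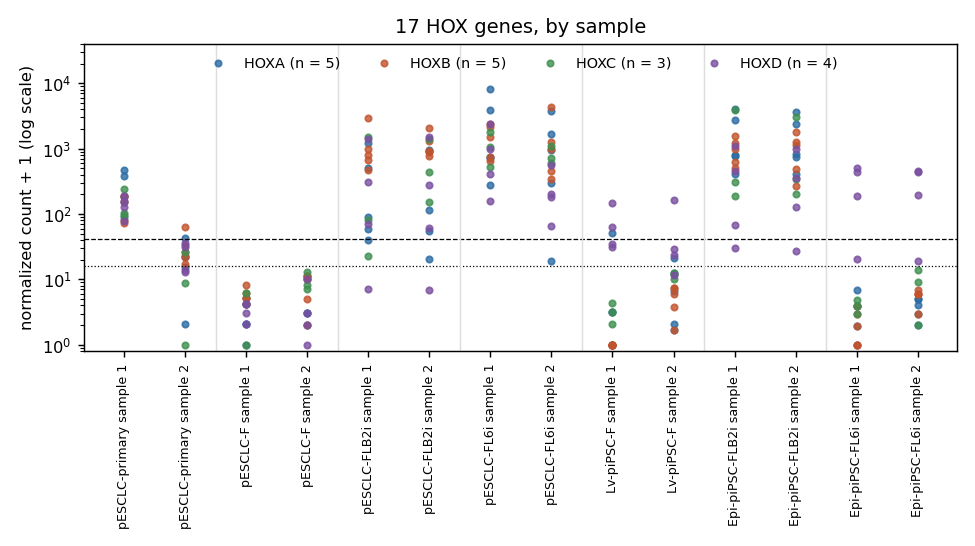
Normalized counts + 1 (log scale) of the 17 HOX genes among the members in each of the 14 samples, coloured by cluster. The dashed line marks the on threshold of 40 and the dotted line the off threshold of 15, and the points lie high in both pESCLC inhibitor groups and in Epi-piPSC-FLB2i and low in pESCLC-F, with HOXD genes alone above the dashed line in Epi-piPSC-FL6i.

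The HOXD genes departed from this pattern. HOXD3, HOXD4 and HOXD8 were on in Epi-piPSC-FL6i, with HOXD8 at 444 and 438 normalized counts, and HOXD8 was also on in Lv-piPSC-F at 146 and 163. The other member of the cluster, HOXD9, was off in pESCLC-FLB2i at 6.16 and 5.91. The pattern shared by 12 HOX genes, on in both pESCLC inhibitor lines and Epi-piPSC-FLB2i and off in Lv-piPSC-F and Epi-piPSC-FL6i, held 16 members in all. The 4 others were GDF10, a secreted factor of the TGFB family, RBFOX1, a neuronal splicing factor, CES3, a carboxylesterase, and an unnamed gene. For HOXB4 the most similar genes over the 14 samples were HOXB3 (Pearson's r 0.990), HOXA3 (0.986) and HOXC5 (0.974), given as a description.

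The medium of the Epi-piPSC was compared in samples that the rule did not use. Limma was fitted to log2(normalized count + 1) of all genes with at least 10 normalized counts in 2 of the samples compared, and calls needed a log2 fold change of 3 or more in either direction with p, adjusted by Benjamini and Hochberg, not above 0.05. Between Epi-piPSC-FL6i and Epi-piPSC-FLB2i, 7.73% of all genes tested were called, and of 183 members tested 66 (36.1%) were. In FL6i 21 members were higher, against 3.23% of all genes, and 45 lower, against 4.50%. Without either Epi-piPSC-FLB2i sample 34 and 35 members were called. The 34 other members did not pass the filter, which a gene high in 1 of the groups passes more easily, so the share is not set against chance. Of the 17 HOX genes, all tested, 13 were lower in Epi-piPSC-FL6i, with log2 fold changes from -9.53 to -4.87, and the 4 HOXD genes were not called. HOXA5 was lower in FL6i by a log2 fold change of -9.53 (SE 0.29, adjusted p 9.5e-07 by limma) and HOXA9 by -9.18 (SE 0.26, adjusted p 8.5e-07). Lines and passages differ between these groups along with the medium, so medium and line cannot be told apart.

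In the embryo-derived lines the comparison of the same 2 media gave no call by limma. Some pESCLC were moved from FL6i into FLB2i, whereas the Epi-piPSC lines arose separately in each medium, so these steps are unlike. Between pESCLC-FL6i and pESCLC-FLB2i limma called 0 of 177 members tested and 0% of all genes, with an unadjusted p under 0.05 in 31 members. DESeq2 on the recovered reads called 10 members and edgeR 0. The 31 and the 10 are given without the shares of all genes, so they do not tell members from genes in general. Large differences were among those not called by limma. The HOX members ran from -1.20 for HOXA3 to 4.94 for HOXA9 (SE 0.61, adjusted p 0.90), with a median of 0.80. DLX1 was at -5.69 (SE 1.52, adjusted p 0.90). The difference of the 2 medium effects was tested as an interaction over the 8 samples: 34 of 199 members were called (17.1%), against 2.23% of all genes tested. For 29 the effect of FL6i relative to FLB2i was lower in the Epi-piPSC, against 1.50% of all genes, and for 5 it was higher, against 0.728%. Of the 29, 14 were HOX genes. The largest were HOXA9 at -14.12 (SE 0.72, adjusted p 0.0031), HOXA5 at -12.55 (SE 0.68, adjusted p 0.0031) and HOXB8 at -10.93 (SE 1.13, adjusted p 0.012). The HOXA9 value holds its difference between the pESCLC media as well as that between the Epi-piPSC media. The count fell to 0 when either Epi-piPSC-FLB2i sample was left out, and to 8 and 10 without Epi-piPSC-FL6i sample 1 and sample 2. It was 19 without pESCLC-FLB2i sample 2, 51 without pESCLC-FL6i sample 2 and 56 without pESCLC-FL6i sample 1.

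Sequences upstream of HOXA9 and HOXA5, which had the largest interaction, are shown to give the genomic context of genes that moved together. Each is the 300 bases before the RefSeq gene start in Sscrofa11.1, in the direction of transcription, and predicted gene starts are uncertain. Capitals mark matches, on either strand, to 5 motifs. The motif searched for GATA factors was AGATAA. For TFAP2 factors the search used GCCNNNGGC. The letters taken for TEAD factors were GGAATG. POU factors were represented by the octamer ATGCAAAT. The TATA box was searched as TATAAA. The windows are chr18:45404294-45404593 on the plus strand for HOXA9 and chr18:45429391-45429690 on the plus strand for HOXA5.
HOXA9: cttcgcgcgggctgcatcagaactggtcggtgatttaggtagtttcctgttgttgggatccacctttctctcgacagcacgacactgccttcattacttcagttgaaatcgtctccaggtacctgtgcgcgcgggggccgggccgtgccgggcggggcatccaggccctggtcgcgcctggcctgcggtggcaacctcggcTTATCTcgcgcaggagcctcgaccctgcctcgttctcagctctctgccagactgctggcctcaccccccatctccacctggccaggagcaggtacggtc
HOXA5: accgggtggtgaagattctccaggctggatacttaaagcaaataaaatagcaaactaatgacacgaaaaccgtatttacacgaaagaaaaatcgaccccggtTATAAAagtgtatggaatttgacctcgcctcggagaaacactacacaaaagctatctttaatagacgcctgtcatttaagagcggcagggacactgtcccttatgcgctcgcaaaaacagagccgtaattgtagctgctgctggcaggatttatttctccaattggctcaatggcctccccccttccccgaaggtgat
HOXA9 held a GATA match at positions -99 to -94 from the gene start and HOXA5 a TATA match at -198 to -193. A match is a description of the letters. Among the 177 members placed on RefSeq, 10.2% of windows held the GATA motif, 25.4% the TFAP2 motif, 15.3% the TEAD motif, 2.26% the octamer and 9.60% the TATA motif. The shares of all 19531 protein-coding genes were 10.0%, 24.6%, 12.4%, 1.49% and 11.9%.

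Transcription factors of trophectoderm and surface ectoderm formed a second group. Of 26 trophectoderm genes in the table, 23 were on in pESCLC-primary and 5 were members: CDX2, GATA2, TFAP2C, HAND1 and DLX3. The summed level of the 26 was 360691 and 424019 normalized counts in the outgrowths and 521256 and 505376 in pESCLC-F. KRT8 made up most of these sums, and GATA3 had 209 and 790 normalized counts in pESCLC-F. Genes of the list at 40 or more numbered 23 and 20 in the outgrowths and 17 and 15 in pESCLC-F. In the other groups the sum ran from 1342 to 96763. No member was in the short lists used for the genes of hypoblast and endoderm (31 in the table), steroid synthesis (11), neural ectoderm (10), blood and endothelium (9), germ cells (5) or the interferon response (16), which are too short to be read as an absence of such genes. With TFAP2B, DLX1, DLX2, GRHL3, BNC1, SP6, FOXI2 and TRIM29, which shape ectoderm and epidermis, and without HAND1, 12 members belonged to this group. Of these, 8 were on in Epi-piPSC-FLB2i, 3 in pESCLC-FLB2i, 3 in Lv-piPSC-F, 3 in Epi-piPSC-FL6i and 1 in pESCLC-FL6i. DLX3, a homeobox factor, was off in all 5, with 55.1 and 32.8 normalized counts in the outgrowths and at most 25.3 elsewhere.

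CDX2, the homeobox factor of trophectoderm and later of the posterior body, was on in 1 of the 5 groups. It had 388 and 26.2 normalized counts in the outgrowths, 4.19 and 14.2 in pESCLC-F and 785 and 757 in Epi-piPSC-FLB2i. It was at 9.90 and 8.70 in Lv-piPSC-F, at 0.769 and 0 in pESCLC-FLB2i, at 0 and 0 in pESCLC-FL6i and at 0.965 and 0 in Epi-piPSC-FL6i. Epi-piPSC-FLB2i alone lay above the rest, with no overlap. The level there was 1569-fold that of Epi-piPSC-FL6i (95% exact interval for counting error 281 to 62025) and 1783-fold that of pESCLC-FLB2i (320 to 70482), each against 1 read in the lower group. Limma gave log2 fold changes of -9.11 for Epi-piPSC-FL6i against Epi-piPSC-FLB2i (SE 0.42, adjusted p 3.5e-06) and 9.18 for Epi-piPSC-FLB2i against pESCLC-FLB2i (SE 0.48, adjusted p 0.0094). The interaction was -8.69 (SE 0.88, adjusted p 0.012), and since pESCLC-FL6i had no reads of CDX2 this value depends on the pseudocount.

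TFAP2C and GATA2 were on in the induced lines and off in the embryo-derived ones in inhibitor media. TFAP2C, an AP-2 factor of trophectoderm and germ cells, had 193 and 142 normalized counts in the outgrowths and 0 and 2.02 in pESCLC-F. It had 1088 and 1608 in Epi-piPSC-FL6i, 212 to 910 in Lv-piPSC-F and 189 to 251 in Epi-piPSC-FLB2i, but at most 7.69 in the 4 pESCLC samples in inhibitor media. The 6 induced samples thus lay above those 4 without overlap. TFAP2C was higher in Epi-piPSC-FLB2i than in pESCLC-FLB2i by a log2 fold change of 5.06 (SE 0.49, adjusted p 0.015), and in Epi-piPSC-FL6i than in pESCLC-FL6i by 9.44 (SE 0.81, adjusted p 0.021), the latter against 1 read. GATA2, a zinc finger factor, had 86.6 and 33.9 normalized counts in the outgrowths, 201 and 143 in Epi-piPSC-FL6i, 88.0 and 64.6 in Epi-piPSC-FLB2i, 207 and 9.40 in Lv-piPSC-F, and 0.985 to 23.6 in the pESCLC in inhibitor media, so 1 of the Lv-piPSC-F samples lay within their range. Its call for Epi-piPSC-FLB2i against pESCLC-FLB2i had a log2 fold change of 4.42 (SE 0.72, adjusted p 0.031), while in FL6i it was 3.78 (SE 0.84, adjusted p 0.062). An unnamed gene, ENSSSCG00000001393, had the same on and off pattern and was the most similar to TFAP2C (Pearson's r 0.954 over 14 samples, a description).

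**Figure D5:**
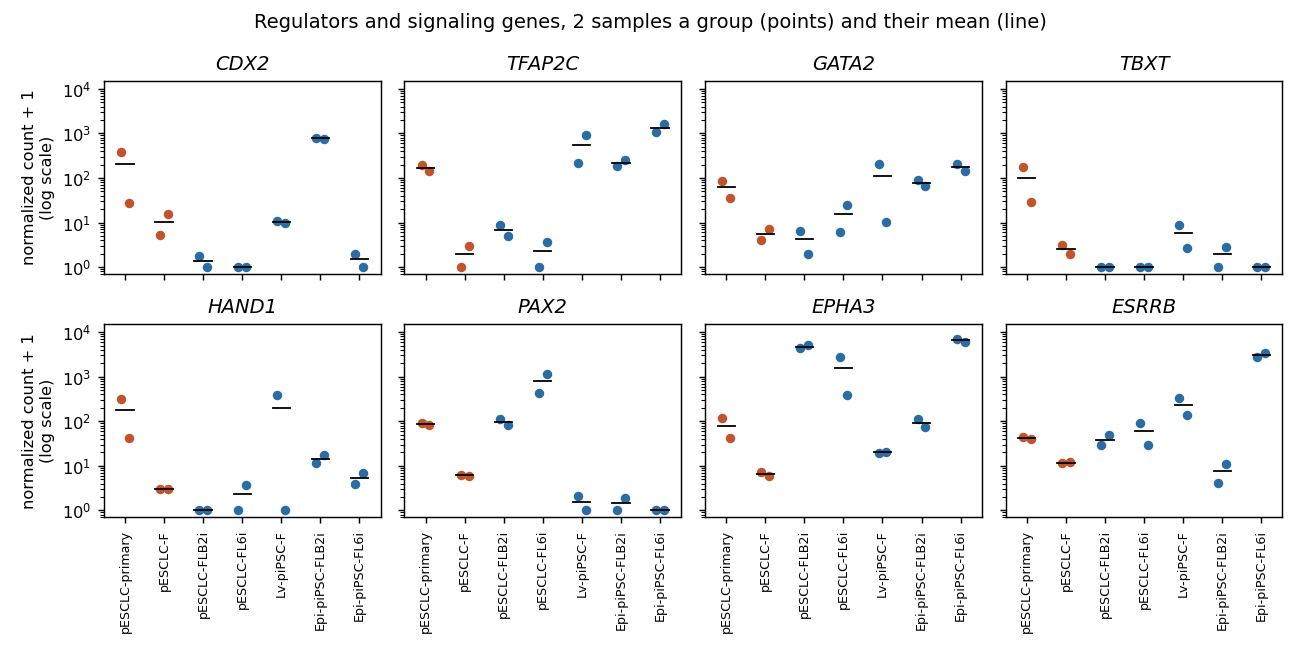
Normalized counts + 1 (log scale) of 8 members in the 2 samples of each group (points) with the mean of the 2 (line), in orange for the groups that the rule used and in blue for the others. CDX2 is high in Epi-piPSC-FLB2i alone of the 5 other groups, TBXT in none of them, and PAX2 in pESCLC-FLB2i and pESCLC-FL6i.

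The upstream window of CDX2, chr11:5346082-5346381 on the minus strand, is shown because CDX2 was on in a single group of the 5, with capitals as above.
CDX2: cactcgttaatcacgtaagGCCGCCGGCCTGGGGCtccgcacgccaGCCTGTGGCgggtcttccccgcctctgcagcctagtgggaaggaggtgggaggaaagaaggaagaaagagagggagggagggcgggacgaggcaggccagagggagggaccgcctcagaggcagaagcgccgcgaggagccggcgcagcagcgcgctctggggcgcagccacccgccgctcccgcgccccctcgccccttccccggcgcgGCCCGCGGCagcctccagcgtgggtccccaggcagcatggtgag
CDX2 held 4 matches to the TFAP2 motif, of which the first 2 share bases. The window was 73.0% G and C, against a median of 56.7% over all protein-coding genes. The fixed letters of this motif are all G or C, so the matches describe the letters alone.

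Other ectoderm factors also differed between Epi-piPSC-FLB2i and Epi-piPSC-FL6i, where medium and line cannot be told apart. DLX1 and DLX2, adjacent homeobox genes 8907 bases apart on chromosome 15, had 35.2 and 142 and 89.0 and 132 normalized counts in Epi-piPSC-FLB2i and at most 2.00 in Epi-piPSC-FL6i. In pESCLC-FLB2i DLX1 had 442 and 1046, against 2.1 and 55.0 in pESCLC-FL6i. DLX2 was lower in Epi-piPSC-FL6i than in FLB2i, with a log2 fold change of -6.29 (SE 0.51, adjusted p 3.7e-05). TFAP2B, an AP-2 factor of neural crest and kidney, had 521 and 731 normalized counts in the outgrowths and was on in both pESCLC inhibitor lines and in Epi-piPSC-FLB2i. BNC1, a keratinocyte zinc finger factor, ran the other way, with 222 and 209 in the outgrowths, and was on in Epi-piPSC-FL6i alone, at 40.5 and 43.0. RGS5, a regulator of G protein signaling of pericytes, and KANK4 shared the pattern of CDX2, with 85.9 and 89.4 and 45.5 and 57.2 normalized counts in Epi-piPSC-FLB2i.

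Of 3 mesoderm factors among the members, TBXT, HAND1 and HAND2, none was on in the inhibitor media. Of 14 mesoderm genes in the table, 10 were on in the outgrowths and 2, TBXT and HAND2, were members. The list as a whole differed from these. Its summed level was 5788 and 5314 normalized counts in the outgrowths and 7304 and 5629 in pESCLC-F, so the sum did not fall in pESCLC-F. It was 8295 and 7536 in Epi-piPSC-FLB2i and 1015 to 3165 in the other 8 samples. In each of the 4 pESCLC samples in inhibitor media 6 or 7 of the 14 were at 40 or more. TBXT, the T-box factor of the primitive streak, had 174 and 28.4 normalized counts in the outgrowths and 2.09 and 1.01 in pESCLC-F. It was at 0 in the pESCLC in both inhibitor media and in Epi-piPSC-FL6i and at most at 7.70 in the others. HAND2 had 54.1 and 29.5 in the outgrowths and at most 21.0 in the 10 other samples. HAND1, which also acts in trophectoderm, had 307 and 41.5 normalized counts in the outgrowths and 393 and 0 in Lv-piPSC-F, so its mean there rests on 1 sample. Epi-piPSC-FLB2i had 10.3 and 16.6 of it and pESCLC-FLB2i none, a called difference of 3.82 on the log2 scale (SE 0.60, adjusted p 0.029) at levels close to or below the off threshold. F5, a coagulation factor, and ABHD12B had the same pattern as HAND1, with 53.9 and 28.9 and 140 and 96.8 normalized counts in Lv-piPSC-F.

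A single pluripotency gene of the 24 in the table was a member, and 17 of the 24 were on in the outgrowths. ESRRB, an orphan nuclear receptor of naive pluripotency, had 43.3 and 39.3 normalized counts in the outgrowths, near the threshold, and 10.5 and 11 in pESCLC-F. It had 2819 and 3413 in Epi-piPSC-FL6i and 334 and 138 in Lv-piPSC-F, while Epi-piPSC-FLB2i held 3.10 and 10.1. The groups did not overlap, and ESRRB had the largest rise among members in Epi-piPSC-FL6i against Epi-piPSC-FLB2i, with a log2 fold change of 8.84 (SE 0.43, adjusted p 4.0e-06). It had 91.2 and 28.8 in pESCLC-FL6i and 27.7 and 47.3 in pESCLC-FLB2i, and the interaction was 8.35 (SE 1.01, adjusted p 0.017). ZSCAN10, a zinc finger factor of embryonic stem cells, had 178 and 42.6 in the outgrowths, 915 and 1112 in Epi-piPSC-FL6i and 1144 and 962 in Lv-piPSC-F. It was at 16.6 and 3.69 in Epi-piPSC-FLB2i and had no read in any of the 4 pESCLC samples in inhibitor media, so that its level in Epi-piPSC-FL6i was at least 184-fold higher than in pESCLC-FL6i (floor of 3 reads a library). Its log2 fold change between the Epi-piPSC media was 6.80 (SE 0.55, adjusted p 3.4e-05). The same value came out of the interaction at 6.80 (SE 1.02, adjusted p 0.028), since the pESCLC groups were both at 0, and it depends on the pseudocount. HERC5, an interferon-induced ubiquitin ligase, shared the pattern of ESRRB, with 387 and 554 in Epi-piPSC-FL6i, 2973 and 2753 in Lv-piPSC-F but 11.4 and 6.46 in Epi-piPSC-FLB2i.

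WNT signaling was represented by ligands, a receptor, effectors and secreted inhibitors. The members held 9 genes of this pathway, of which 6 were on in pESCLC-FLB2i, 6 in pESCLC-FL6i, 4 in Epi-piPSC-FLB2i, 3 in Epi-piPSC-FL6i and 2 in Lv-piPSC-F. Of the ligands, WNT6 had 526 and 553 normalized counts in the outgrowths, 1.05 and 0 in pESCLC-F and at most 7.99 elsewhere but for 47.3 in Lv-piPSC-F sample 1. WNT9B had 561 and 322 in the outgrowths and at most 31.5 in the other samples. Both outgrowths lay well above the other samples for these ligands. WNT7B had 17.7 and 88.5 in the outgrowths, 1552 and 286 in pESCLC-FL6i, 1141 and 39.4 in pESCLC-FLB2i, and at most 7.70 in the induced lines. It was lower in Epi-piPSC-FL6i than in pESCLC-FL6i by a log2 fold change of -6.82 (SE 0.95, adjusted p 0.033). WNT2, with 35.4 and 47.0 in the outgrowths, had 102 in pESCLC-FL6i sample 2 and none in sample 1.

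Of the receptors and effectors, FZD10, a frizzled receptor, was in the core on in all 5 groups. It had 194 and 31.7 normalized counts in the outgrowths, 1.05 and 0 in pESCLC-F, and 1464 to 4111 in the pESCLC and Epi-piPSC in inhibitor media against 150 and 125 in Lv-piPSC-F. Against Epi-piPSC-FL6i it was lower in Lv-piPSC-F by a log2 fold change of -3.50 (SE 0.17, adjusted p 0.0066). LEF1, the nuclear effector of WNT signaling, and NKD1, a feedback inhibitor, had 291 and 110 and 407 and 103 normalized counts in the outgrowths. In Epi-piPSC-FLB2i LEF1 had 745 and 776 and in Epi-piPSC-FL6i 19.3 and 13.0, a called difference of -5.50 (SE 0.27, adjusted p 4.4e-06). NKD1 had 412 and 682 against 97.5 and 43.0, a difference of -3.01 (SE 0.40, adjusted p 0.00037), which lies at the threshold and was called in 7 of 13 alternatives. SFRP2, a secreted WNT antagonist, was on in all 5 groups, and SOSTDC1, another, was on in pESCLC-FLB2i alone, at 46.2 and 288.

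Of 24 genes of TGFB and BMP signaling in the table, 22 were on in the outgrowths and 1 was a member. SMAD9, a BMP effector, had 77.7 and 64.5 normalized counts in the outgrowths, 448 and 421 in Epi-piPSC-FLB2i, 271 and 885 in pESCLC-FL6i and 505 and 905 in pESCLC-FLB2i. It had 33.8 and 33.0 in Epi-piPSC-FL6i, lower than in Epi-piPSC-FLB2i by a log2 fold change of -3.66 (SE 0.23, adjusted p 1.2e-05) and than in pESCLC-FL6i by -3.84 (SE 0.69, adjusted p 0.046). GDF10 had 90.5 and 3.28 in the outgrowths, 8.69 and 13.0 in Epi-piPSC-FL6i and 228 and 781 in Epi-piPSC-FLB2i. Of the other secreted factors, HGF, CXCL12 and ANGPT1 each had more in pESCLC-primary sample 1, and GDNF was off in all 5 groups.

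A group of axon guidance and neuronal adhesion genes was drawn up after the values were seen and holds 17 members. Of these, 16 were on in pESCLC-FL6i and 15 in pESCLC-FLB2i, where 93.7% and 93.1% of the other genes on in the outgrowths were, 12 in Epi-piPSC-FL6i, 10 in Epi-piPSC-FLB2i and 7 in Lv-piPSC-F. ASTN1, a neuron-glia adhesion protein, had 220 and 48.1 normalized counts in the outgrowths, 3.14 and 2.02 in pESCLC-F and 1553 to 10086 in the other 10 samples. NRCAM, a cell adhesion molecule, had 185 and 83.1 in the outgrowths and 3185 to 5490 in the pESCLC in inhibitor media. Its values in Lv-piPSC-F were 69.3 and 78.3, below the outgrowths. SEMA3A, a secreted repulsive guidance cue, had 586 and 444 in the outgrowths, and was on in pESCLC-FLB2i (21.5 and 135) and pESCLC-FL6i (108 and 223) but at most at 25.1 in the induced lines. SEMA6D was highest in the pESCLC in inhibitor media, at 1834 to 5530.

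Within the ephrin receptors the groups separated widely. EPHA3 had 118 and 40.4 normalized counts in the outgrowths and 6.28 and 5.06 in pESCLC-F. Epi-piPSC-FL6i had 6859 and 6147 of it, against 109 and 73.8 for Epi-piPSC-FLB2i, while pESCLC-FLB2i had 4302 and 5052, pESCLC-FL6i 2767 and 385 and Lv-piPSC-F 18.7 and 19.8. The difference between the Epi-piPSC groups was thus opposite in direction to that of most HOX genes. Its log2 fold change was 6.16 for FL6i against FLB2i (SE 0.18, adjusted p 8.9e-07 by limma). The interaction was 8.34 (SE 1.15, adjusted p 0.023). Against Epi-piPSC-FL6i, Lv-piPSC-F was lower by -8.32 (SE 0.18, adjusted p 0.0036), the largest difference of a member in that comparison. EPHB1 was lower in Lv-piPSC-F in the same comparison, by -5.26 (SE 0.74, adjusted p 0.017), and EPHA7 was on in all 5 groups. The window before EPHA3, chr13:166942792-166943091 on the minus strand, is shown for contrast with the HOX genes and held none of the 5 motifs.
EPHA3: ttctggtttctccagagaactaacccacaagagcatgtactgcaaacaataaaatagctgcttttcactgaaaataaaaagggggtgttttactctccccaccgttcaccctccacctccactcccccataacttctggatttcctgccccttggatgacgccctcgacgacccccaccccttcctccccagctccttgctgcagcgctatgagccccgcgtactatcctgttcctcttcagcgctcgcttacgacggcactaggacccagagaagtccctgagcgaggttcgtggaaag

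Of 15 other patterning factors, ESRRB and ZSCAN10 included, 12 were on in pESCLC-FL6i, 11 in pESCLC-FLB2i, 10 in Epi-piPSC-FL6i, 9 in Epi-piPSC-FLB2i and 8 in Lv-piPSC-F. The homeobox genes IRX2, IRX4 and IRX5 and the nuclear receptor gene NR2F1 were on in both pESCLC inhibitor lines and in Epi-piPSC-FLB2i. IRX2, IRX5 and NR2F1 were also on in Epi-piPSC-FL6i, and IRX5 in Lv-piPSC-F as well. NR2F1 had 93.4 and 43.7 normalized counts in the outgrowths, 1148 and 1321 in Epi-piPSC-FLB2i, 46.3 and 38.0 in Epi-piPSC-FL6i and 0 and 11 in Lv-piPSC-F. TSHZ1, a zinc finger factor, was off in Lv-piPSC-F at 6.60 and 13.2, and had 389 and 548 in Epi-piPSC-FL6i, a difference of -5.48 (SE 0.48, adjusted p 0.0087). PAX2, a factor of kidney and midbrain, was on in the embryo-derived inhibitor lines and not in the induced ones. It had 92.5 and 82.0 in the outgrowths, 427 and 1168 in pESCLC-FL6i and 109 and 82.8 in pESCLC-FLB2i. In the 6 induced samples it was at most at 1.10. The level in pESCLC-FL6i was at least 271-fold higher than in Epi-piPSC-FL6i, which had no reads (floor of 3 reads a library), and in pESCLC-FLB2i 200-fold that of Epi-piPSC-FLB2i (95% exact interval for counting error 35.6 to 7943). SALL3 and the Hedgehog effector GLI2 were on in all 5 groups, and GLI2 had 2488 and 2560 in Epi-piPSC-FL6i.

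Among the matrix genes, DCN and LUM were uneven between duplicates in some groups. The 13 matrix members were on in 9 cases in pESCLC-FL6i, 8 in pESCLC-FLB2i and Epi-piPSC-FL6i, and 7 in Lv-piPSC-F and Epi-piPSC-FLB2i. Of 12 mesenchyme genes in the table, 11 were on in the outgrowths and 2, DCN and LUM, were members. These neighbouring genes of small leucine-rich proteoglycans lie 34945 bases apart on chromosome 5. DCN had 310 and 280 normalized counts in the outgrowths and LUM 186 and 52.5. In pESCLC-FL6i DCN had 1.05 and 571 and LUM 2.1 and 1480, the second value of each from the library with the summed mesenchyme level of 306549. In Lv-piPSC-F DCN had 2.20 and 50.5 and LUM 1.10 and 93.3, where the summed level was 7210 and 29929, with 2 of the 12 at 0 in sample 1. In the outgrowths the summed level was 23507 and 15031 and in pESCLC-F 5995 and 11563, and its part in these genes was not tested. The Epi-piPSC duplicates were closer, and LUM was higher in FL6i (144 and 204) than in FLB2i (17.6 and 6.46) by a log2 fold change of 3.87 (SE 0.48, adjusted p 0.00026). DCN differed by 3.74 (SE 0.77, adjusted p 0.0037). Their summed mesenchyme level was 12857 and 16665 in FL6i and 36727 and 28470 in FLB2i, the other way round.

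Epi-piPSC and pESCLC were also compared in each medium. In FLB2i, 3.68% of all genes tested and 32 of 185 members (17.3%) were called. In the Epi-piPSC 19 members were higher, against 1.41% of all genes, and 13 lower, against 2.27%. CDX2 led the rises, and the 3 largest falls were PDYN, the opioid precursor prodynorphin, at -6.97 (SE 0.52, adjusted p 0.012), PAX2 at -6.12 (SE 0.58, adjusted p 0.015) and EPHA3 at -5.69 (SE 0.26, adjusted p 0.0094). Of the HOX genes, 3 were higher in the Epi-piPSC, HOXA9 by 4.95 (SE 0.37, adjusted p 0.012). In FL6i, 6.64% of all genes tested and 51 of 181 members (28.2%) were called, 11 higher, against 1.78% of all genes, and 40 lower, against 4.86%. Of the 40, 12 were HOX genes. HOXB8 at -10.28 (SE 1.05, adjusted p 0.023), HOXA5 at -10.04 (SE 0.57, adjusted p 0.021) and PAX2 at -9.47 (SE 0.69, adjusted p 0.021) were the furthest below. Leaving out either Epi-piPSC sample took the count to 0 in both comparisons, and leaving out a pESCLC sample gave 31 and 33 in FLB2i and 45 and 50 in FL6i.

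Lv-piPSC-F and Epi-piPSC-FL6i had the fewest members on, and were compared with each other. Here 5.76% of all genes tested and 28 of 160 members (17.5%) were called. In Lv-piPSC-F 8 members were higher, against 2.52% of all genes, and 20 lower, against 3.25%. Besides EPHA3, the synaptotagmin gene SYT11 was lower, by -5.49 (SE 0.21, adjusted p 0.0066). An unnamed gene, ENSSSCG00000025499, WNT2 and VIT, a matrix protein gene, led the rises. WNT2 had 12.1 and 24.4 normalized counts in Lv-piPSC-F and none in Epi-piPSC-FL6i, and VIT had 69.3 and 119 against 13.5 and 2.00, at 3.80 (SE 0.93, adjusted p 0.048). The count was 0 without either Epi-piPSC-FL6i sample, and 27 and 37 without Lv-piPSC-F sample 1 and sample 2.

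On the genome, 177 members were placed by symbol in the RefSeq annotation of Sscrofa11.1. Of neighbouring placed members within 100000 bases, 15 pairs were found, and 11 of them were HOX genes of the same cluster. DLX1 with DLX2 and DCN with LUM have been given above. In 3 pairs, HOXA3 with HOXA5, FJX1 with PAMR1 and ASTN1 with BRINP2, the gene models overlap, so reads of these genes may be shared or lost in counting and their values are uncertain. Chromosome 18, which carries HOXA, held 8 members, 4.52% of those placed against 2.12% of the placed genes of the table.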

How the data were processed

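Polyadenylated RNA was sequenced in 14 samples of 7 groups taken from the sample labels. The authors aligned paired-end 50 bp reads to Sscrofa11.1 with TopHat 2.1.0, counted them on genes with HTSeq 0.8.0 and normalized the counts with DESeq2. The release of the annotation is not given in the sources used here. The deposited signal values are these normalized counts, and dividing by the smallest value above 0 of a sample gave whole reads back (100% of values within 0.001 reads). Symbols were found for 14151 of the 19588 gene identifiers.

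Groups were compared with limma 3.58.1 (trend, R 4.3.3) on log2(normalized count + 1), which understates changes of low genes, over genes that reached 10 normalized counts in 2 or more samples, adjusted over all genes tested. The authors' test was DESeq2, so DESeq2 1.42.0 and edgeR 4.0.16 on the recovered reads were alternatives. Others were pseudocounts of 0.1 and 5, other filters and thresholds, a joint fit of all groups, a block for replicate number and each sample left out. Reads were also simulated with 200 genes changed by 5 on the log2 scale, above the threshold of 3. Of these, limma called 198 in the comparison of the Epi-piPSC media (14183 genes) and 184 in the interaction (15030 genes). It called 199 for the pESCLC media (14502 genes), where the measured samples gave 0 calls. Of the unchanged genes it called 0, 7 and 3, in the same order. The simulation gave all genes and samples the same spread, and whether it matches that of these duplicates was not tested. Measured duplicates were at least 3-fold apart, with 1 at 40 or more, in 22.1% of members in pESCLC-FLB2i. In pESCLC-FL6i the share was 26.3%. The 199 therefore does not tell how many such changes could be called in the measured pESCLC samples.

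Genes were named if they were in a marker list, had 1 of the 3 highest outgrowth means of an on and off pattern, were among the 3 largest calls in a direction, or lay next to a threshold. Members, lists and role groups were chosen with earlier results of these data known, and the role groups and their examples after the values were seen. Mouse feeder RNA may add reads to porcine genes, which was not tested. HTSeq's strand setting was left at its default, so antisense genes are uncertain. Some items that the naming rule selects are not reported here.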

Additional observations from a re-analysis of the deposited data

Results flagged for a closer look

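Lines and passages differ together with the medium in both Epi-piPSC and pESCLC, and the Epi-piPSC lines arose separately in each medium. For 34 members the difference between FL6i and FLB2i was not the same in Epi-piPSC as in pESCLC by the interaction test of limma. Among the genes named from it, the log2 difference of the medium effect, Epi-piPSC minus pESCLC, was -14.12 for HOXA9, -12.55 for HOXA5, -10.93 for HOXB8 and -8.69 for CDX2. It was positive for ESRRB at 8.35, EPHA3 at 8.34 and ZSCAN10 at 6.80. The values for CDX2 and ZSCAN10 depend on the pseudocount, since pESCLC groups had no reads. With 2 samples a group no test for a sample far from the others was made.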

How the results depend on the processing

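The number of members followed the rule closely: 89 genes with both samples past each threshold, 84 with the on threshold at 80 and 74 with the off threshold at 5, while scaling by library size gave 248. Under these 3 stricter rules the genes on were 53, 60 and 48 in pESCLC-FL6i, 48, 51 and 40 in pESCLC-FLB2i, 48, 37 and 35 in Epi-piPSC-FL6i, 31, 29 and 31 in Lv-piPSC-F, while Epi-piPSC-FLB2i had 57, 51 and 36. The first rule put Epi-piPSC-FLB2i above pESCLC-FL6i, and the cause was not tested. With each sample left out in turn the members numbered 175 to 279, with 115 to 196 on in pESCLC-FL6i, 107 to 173 in pESCLC-FLB2i, 80 to 139 in Epi-piPSC-FL6i, 96 to 166 in Epi-piPSC-FLB2i and 76 to 129 in Lv-piPSC-F.

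Members called in the tests ranged, with a sample left out, from 34 to 60 for the Epi-piPSC media, 0 to 0 for the pESCLC media, 0 to 33 between origins in FLB2i, 0 to 50 in FL6i, 0 to 37 for Lv-piPSC-F against Epi-piPSC-FL6i and 0 to 56 for the interaction, a lone sample being assumed to vary like the others. A threshold of 3-fold instead of 3 on the log2 scale gave 113 calls for the Epi-piPSC media and 55 for Lv-piPSC-F, and the adjusted p alone 147, 52 in FLB2i between origins and 60 for Lv-piPSC-F. DESeq2 called 10 members between the pESCLC media. Counts under these other thresholds and tools are given without the shares of all genes, so they describe the settings and not the members. Of the alternative values of named genes, 437 kept direction and call and 80 kept direction alone.

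The labels do not say that a replicate number marks a shared animal or batch. In both pESCLC inhibitor groups sample 2 was the later passage, and the part of passage was not tested. Deviations of same-numbered samples correlated at 0.36 for the pESCLC media and between -0.057 and 0.072 otherwise, and the replicate block gave 66, 0, 28, 42, 26 and 23 calls in the 6 tests, in the order above. A log2 fold change of 3 was a chosen threshold, and smaller differences can have a low adjusted p. Low counts in the smallest library limit its values.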
